A study of Mus musculus with 4 samples.

Results

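Chemokines are small secreted proteins that guide white blood cells into tissue, and they were studied here through 10 of their genes in the kidney and the heart of septic mice. They were read as the rows of the count tables whose Ensembl identifier, with the version dropped, belongs to Ccl2, Ccl7, Ccl5, Cxcl1, Cxcl9, Cxcl10, Cxcl12, Cxcl14, Cxcl16 or Cx3cl1. All 10 were found among 55401 genes. Of these, 7 in kidney and 8 in heart averaged 10 counts or more across both libraries of the tissue. The others were too rare for a call, namely Ccl7, Ccl5 and Cxcl9 in kidney and Ccl5 and Cxcl10 in heart.

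All mice were C57BL/6 and all had undergone cecal ligation puncture (CLP), in which the cecum is tied off and pierced so that gut bacteria reach the abdomen. RNA was sequenced from 4 libraries, 1 each for the kidney of the CLP group, the kidney of the CLP + MLT group, the heart of the CLP group and the heart of the CLP + MLT group. No sham library was used here. For kidney, the study's methods describe male mice aged 8 weeks and collection 24 h after surgery. The CLP + MLT group drank water with melatonin (MLT) at 25 μg/ml during the 14 days before the operation. The paper does not describe the hearts, so no dose or time can be stated for them, and no source says whether a library holds 1 mouse or several. Both melatonin libraries are titled with the ending MLT4, which is unexplained. With 1 library a group, no difference has a replicate check: each interval below covers counting error only, and each comparison is between libraries, not conditions.

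Chemokines work as pairs of ligand and receptor. CCR2 ligands such as Ccl2 and Ccl7 call monocytes out of the bone marrow, Ccl5 attracts T cells and monocytes, and Cxcl1 attracts neutrophils through CXCR2. Cxcl9 and Cxcl10 are induced by interferon and attract T and NK cells through CXCR3. Cxcl12, Cxcl14, Cxcl16 and Cx3cl1 are made in healthy tissue as well, and Cxcl16 and Cx3cl1 are tethered to the cell membrane until proteases release them. In infected tissue, NF-kB is the best known switch for Cxcl1 and Ccl2, and interferon signalling for Cxcl9 and Cxcl10.

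The 300 bases around the start of a gene, from 250 before to 50 after it, were available from RefSeq (GRCm38.p6) for 6 of the 10 genes. They are Cxcl1, Cxcl9, Cxcl10, Cxcl12, Cxcl14 and Cx3cl1. Each window was searched on both strands for a narrow form of the NF-kB core, GGANNTTCC. A form of the core of the interferon-stimulated response element, TTCNNTTTC, was searched in the same way. These patterns do not match the same bases in any of these windows. Other forms of either site were not searched, so a window may hold sites that are not marked or counted here. In this form, the NF-kB core was found in Cxcl1 and Cxcl10, and it lies in 4.26% of all 32851 windows. The interferon core was found in Cxcl9, Cxcl10 and Cxcl14, and it lies in 8.56% of all windows. The 3 windows below are shown because Cxcl1 and Cxcl10 had the largest ratios in kidney and Cxcl9 the largest in heart among genes with enough counts, and capitals mark the cores.
Cxcl1, chr5:90890995-90891294, plus strand: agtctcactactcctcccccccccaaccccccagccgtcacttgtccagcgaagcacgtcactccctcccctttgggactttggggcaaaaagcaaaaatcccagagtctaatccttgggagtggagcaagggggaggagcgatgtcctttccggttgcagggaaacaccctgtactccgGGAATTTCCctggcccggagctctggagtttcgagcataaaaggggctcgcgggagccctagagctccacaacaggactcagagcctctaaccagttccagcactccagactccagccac
Cxcl10, chr5:92348840-92349139, minus strand: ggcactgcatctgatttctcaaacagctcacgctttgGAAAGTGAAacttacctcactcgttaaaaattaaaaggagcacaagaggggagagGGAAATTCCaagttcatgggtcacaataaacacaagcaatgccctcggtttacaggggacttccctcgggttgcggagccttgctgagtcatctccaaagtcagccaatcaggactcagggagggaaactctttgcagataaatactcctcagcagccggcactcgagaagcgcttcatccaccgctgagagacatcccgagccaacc
Cxcl9, chr5:92328030-92328329, minus strand: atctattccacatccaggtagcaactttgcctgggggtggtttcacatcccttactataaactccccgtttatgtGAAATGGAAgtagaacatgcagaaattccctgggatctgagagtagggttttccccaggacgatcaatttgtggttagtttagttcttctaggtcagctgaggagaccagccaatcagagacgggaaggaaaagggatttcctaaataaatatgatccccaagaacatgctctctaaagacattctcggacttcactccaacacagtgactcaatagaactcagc
Counted from a start site at 0, the NF-kB core begins at −70 in Cxcl1 and at −158 in Cxcl10. Both words, GGAATTTCC and GGAAATTCC, match the core on either strand. The interferon core begins at −213 in Cxcl10, at −175 in Cxcl9 and at −172 in Cxcl14. Of the 21 other chemokine ligands with a window, 4 held the NF-kB core (Ccl1, Ccl12, Cxcl2 and Cxcl3) and 3 held the interferon core. A match gives only the letters, not whether a factor binds them.

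Between 15883057 and 22927905 reads were counted on genes per library. The mitochondrial share of these was 14.8% in the CLP kidney, 24.2% in the CLP + MLT kidney, 31.6% in the CLP heart and 36.0% in the CLP + MLT heart, and its part in the ratios was not tested. Levels in CPM, counts scaled to a fixed library total, were scaled by TMM within each tissue. The tissue labels fitted their markers. Umod, the uromodulin gene of the thick ascending limb, had 94985 and 50359 counts in the kidneys, and the cardiac myosin gene Myh6 had 208975 and 158174 in the hearts. Kidney genes were also read in the hearts. For 7 tubule markers, the CLP heart held 0.667% to 6.85% of the kidney level (median 2.12%), and the CLP + MLT heart 0.964% to 29.8% (median 4.33%).

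Per unit of gene length, the messages of the 10 genes in the septic kidney were mostly those of the membrane-bound and constitutive ligands. In TPM, which divides counts by exon length and gives each library the same sum, the CLP kidney held 42.2 of Cx3cl1, 32.5 of Cxcl16 and 28.7 of Cxcl12, followed by 16.1 of Cxcl1, 8.56 of Cxcl10 and 6.14 of Cxcl14. Ccl2 stood at 2.21, Ccl7 at 2.02, Ccl5 at 0.934 and Cxcl9 at 0.119. Neighbours in this order lay apart by their counting intervals except Ccl2 and Ccl7, and Ccl7 and Ccl5. These intervals do not cover the exon lengths. For Cxcl1 (1875 bases) and Cxcl10 (2252 bases) the length spans the whole gene, so both may stand too low in the order. In the CLP + MLT kidney, Cxcl12 (27.2 TPM) and Cx3cl1 (25.8 TPM) came first with overlapping intervals, Cxcl16 followed with 15.1, and Cxcl14 (5.82) stood above Cxcl1 (4.12), again with overlapping intervals. Cxcl10 was at 1.67, Ccl2 at 1.13, Ccl5 at 1.01 and Ccl7 at 0.134, each overlapping the next, and Cxcl9 had no count.

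The heart held another set. In the CLP heart, Cxcl12 (17.0 TPM), Ccl7 (16.2), Cxcl16 (12.6), Cxcl14 (10.2) and Ccl2 (7.44) led, and each overlapped the next in its interval. Cx3cl1 (2.64), Cxcl1 (2.11), Ccl5 (1.34), Cxcl9 (0.568) and Cxcl10 (0.238) were lower. In the CLP + MLT heart, Cxcl12 stood alone at the top with 30.6 TPM, and Ccl2 (11.6), Cxcl16 (9.57), Ccl7 (9.50) and Cxcl14 (7.16) followed. Cx3cl1 was at 3.60, Cxcl9 at 2.45, Cxcl1 at 2.41, Ccl5 at 0.620 and Cxcl10 at 0.106. The 10 genes together made up 76.5% of the TPM of all 37 chemokine ligands in the CLP kidney, 64.3% in the CLP + MLT kidney, 39.8% in the CLP heart and 50.4% in the CLP + MLT heart. TPM is a share of each library, so it gives the order of genes within a library, and the comparisons between libraries below use counts scaled by TMM.

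**Figure D1:**
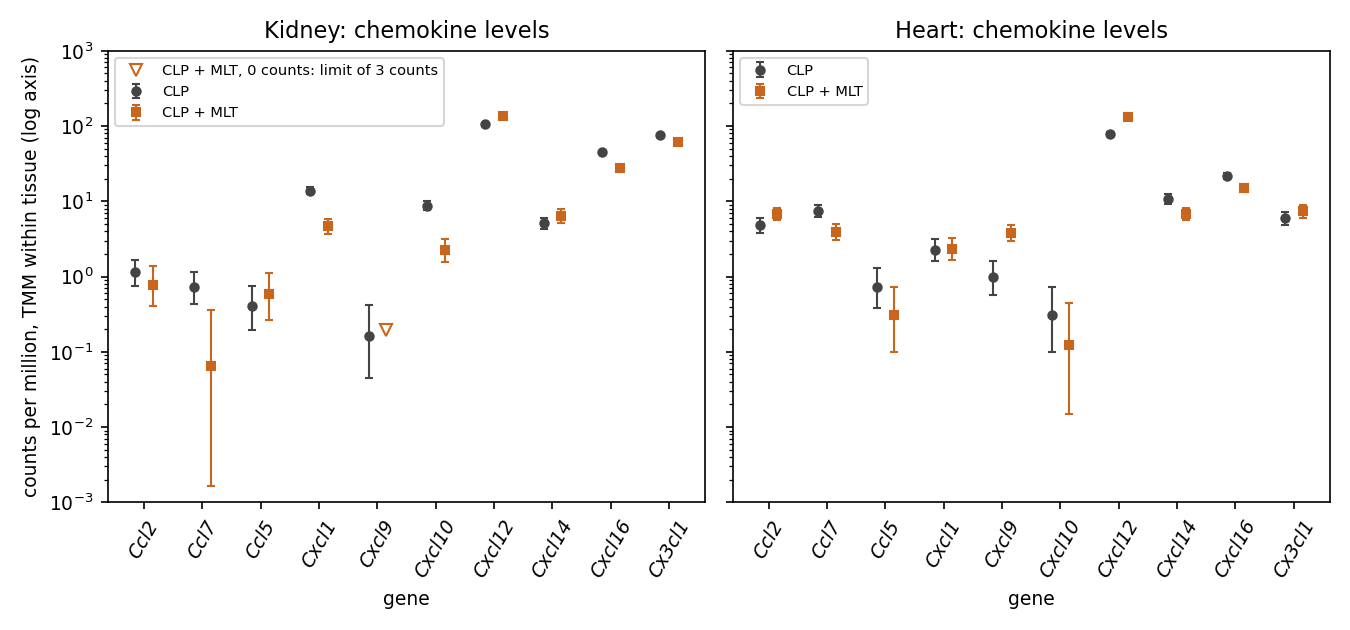
Level of each chemokine gene in CPM (log axis) in the CLP (circles) and CLP + MLT (squares) libraries of kidney (left) and heart (right), with 95% exact Poisson intervals for counting error; an open triangle stands at the limit of 3 counts where no read was counted. In kidney, Cxcl1 falls from 13.7 to 4.68 CPM and Cxcl10 from 8.76 to 2.27 CPM, while in heart Cxcl9 stands at 0.981 and 3.83 CPM.

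Melatonin treatment was compared within kidney first. Here a gene passes the thresholds when its levels differ 1.5-fold or more and an exact two-sided binomial test on the reads of both libraries gives a p no higher than 0.01. Of the 7 chemokine genes with enough counts, 3 were lower in the CLP + MLT kidney (Cxcl1, Cxcl10 and Cxcl16) and 0 were higher. Over all 16932 genes with enough counts, 7.58% were lower, 7.8% higher and 15.4% past the thresholds in either direction. The median log2 ratio of the 7 was −0.54, against 0.0029 over all genes. That median is the value of Ccl2, which had 28 and 12 counts and an interval from −1.66 to 0.47. Scaled by library size only, the median of all genes moved to −0.19 and 23.5% of all calls were higher in place of 50.7%, and the same 3 chemokine genes passed. Every kidney ratio is lower by about the same amount under that scaling, so a median just above 0, such as that of the receptors below, would lie under 0 there, and a gene just past the fold threshold on the higher side, such as Ccl28, would miss it. In whole tissue, fewer cells of a type and less RNA per cell cannot be told apart.

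Among the 7 genes averaging 10 counts or more in kidney, the neutrophil attractant Cxcl1 and the interferon-linked Cxcl10 had the largest ratios. Cxcl1 (ENSMUSG00000029380.11, chromosome 5 from 90891241 to 90893115) was counted 337 times in the CLP kidney and 72 times in the CLP + MLT kidney, or 13.7 and 4.68 CPM. The log2 ratio was −1.55 (−1.94 to −1.18), 2.93-fold lower. Cxcl10 (ENSMUSG00000034855.13, chromosome 5 from 92346638 to 92348889) had 215 and 35 counts, or 8.76 and 2.27 CPM, a log2 ratio of −1.94 (−2.51 to −1.43) and 3.82-fold lower. Both intervals lay wholly beyond a 1.5-fold fall. The windows of both genes hold the NF-kB pattern shown above, but Ccl2, Ccl7, Ccl5 and Cxcl16 had no window to search. The part of NF-kB in these ratios was not tested. A stretch of 133 bases of Cxcl10 exon is shared with Art3 on the other strand, and no source states whether the counting used strand. Cxcl9, the other CXCR3 ligand, had only 4 counts in the CLP kidney and 0 in the CLP + MLT kidney, where the limit of 3 counts used for a count of 0 is 0.195 CPM, more than its level in the CLP kidney (0.163 CPM), and no fold is given.

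The CCR2 ligands were rare in kidney. Ccl2 (ENSMUSG00000035385.5, chromosome 11 from 82035571 to 82037453), also known as Mcp-1, had 28 and 12 counts, or 1.14 and 0.779 CPM. Its log2 ratio was −0.54 (−1.66 to 0.47), an interval that holds 0, and these counts could not show a difference. Ccl7 (ENSMUSG00000035373.2, chromosome 11 from 82045712 to 82047525), its neighbour on the chromosome, had 18 counts and 1. Its log2 ratio of −3.08 spans −8.88 to −0.83, but its mean count was under 10. It passed the thresholds only when the filter on low counts was left out. Ccl5 (ENSMUSG00000035042.2, chromosome 11 from 83525778 to 83530518) had 10 and 9 counts, with a log2 interval from −0.96 to 1.97.

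The membrane-bound ligands, which led the 10 genes by TPM in the CLP kidney, both had ratios below 0. Cxcl16 (ENSMUSG00000018920.11, chromosome 11 from 70453983 to 70459984), the ligand of CXCR6, had 1093 and 426 counts, or 44.6 and 27.7 CPM. It was 1.61-fold lower, with a log2 ratio of −0.69 (−0.85 to −0.52) whose interval reaches above the fold threshold. A stretch of 552 bases of its exons is shared with Zmynd15 on the other strand. Cx3cl1 (ENSMUSG00000031778.13, chromosome 8 from 94772009 to 94782427), called fractalkine, had 1850 and 945 counts, or 75.4 and 61.4 CPM. Its log2 ratio of −0.30 (−0.41 to −0.18) lay below 0 but did not reach the fold threshold. Adam10 and Adam17, the proteases that release both ligands, had log2 ratios of −0.29 and 0.24, and 0 of the 5 counted genes of the list for chemokine-processing proteases passed the thresholds in kidney (median −0.012). In heart, 1 of the 6 counted genes of that list was lower (Mmp14, a membrane-bound matrix protease, log2 ratio −0.87), the median was −0.20, and Adam10 and Adam17 were at 0.08 and 0.10.

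Neither of the constitutive ligands passed the thresholds in kidney. Cxcl12 (ENSMUSG00000061353.11, chromosome 6 from 117168535 to 117181367), which retains stem cells and lymphocytes through CXCR4, had 2620 and 2071 counts in kidney, or 106.8 and 134.5 CPM. Its log2 ratio was 0.33 (0.25 to 0.42). Cxcl14 (ENSMUSG00000021508.11, chromosome 13 from 56288643 to 56296551), an epithelial chemokine, had 125 and 99 counts and a log2 ratio of 0.33 (−0.06 to 0.73). Scaled by library size only, these ratios were 0.14 for both genes.

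**Figure D2:**
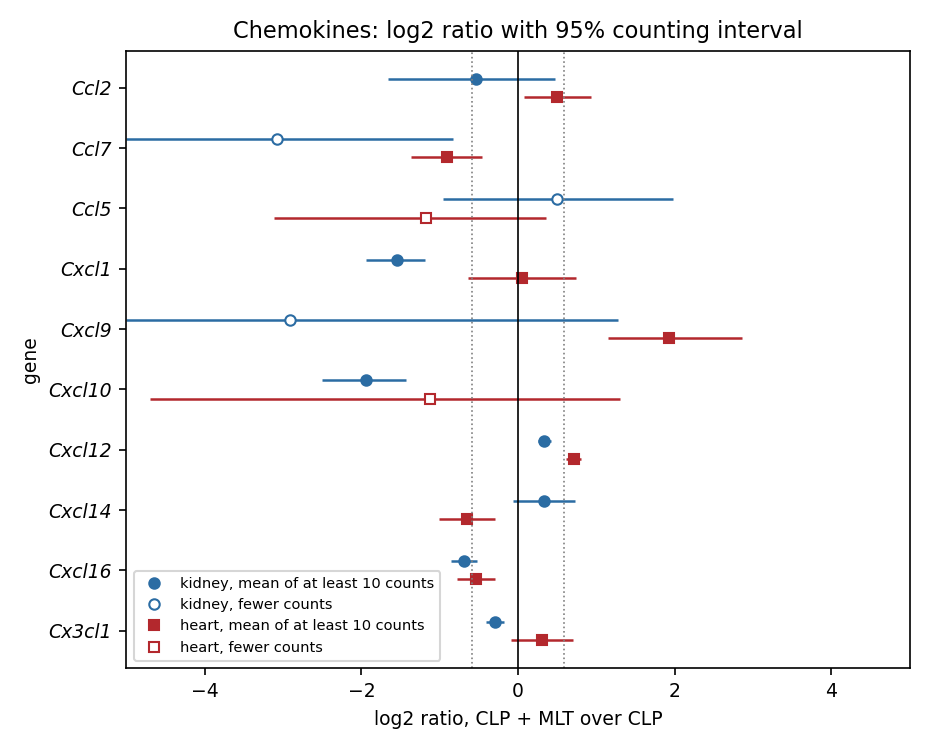
Log2 ratio of CLP + MLT over CLP for each chemokine gene in kidney (circles) and heart (squares), with 95% exact intervals for counting error; open symbols have a mean under 10 counts, dotted lines mark a 1.5-fold change, and intervals that run off the axis are cut at its edge. In kidney Cxcl1 (−1.55) and Cxcl10 (−1.94) lie wholly beyond the left dotted line, and in heart Cxcl9 (1.93) lies wholly beyond the right one; the value of Cxcl9 in kidney rests on 4 counts and 0.

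In heart, of the 8 chemokine genes with enough counts, 2 were higher past the thresholds in the CLP + MLT library (Cxcl9 and Cxcl12) and 2 were lower (Ccl7 and Cxcl14). Over all 15871 genes, 7.15% were higher, 8.78% lower and 15.9% past the thresholds either way. The median log2 ratio of the 8 was 0.18, against 0.0023 over all genes, but it became −0.24 when all 10 genes entered and −0.11 when only those averaging 50 counts or more did. Kidney tubule markers moved with the same contrast. Of 7, 4 were higher in the CLP + MLT heart and 0 lower, their sum was 119.7 CPM in the CLP heart and 208.3 CPM in the CLP + MLT heart, and their part in the chemokine values was not tested.

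Cxcl9 (ENSMUSG00000029417.9, chromosome 5 from 92321347 to 92328079) had the largest ratio of the 10 genes in heart. It had 16 counts in the CLP heart and 62 in the CLP + MLT heart, or 0.981 and 3.83 CPM, a log2 ratio of 1.93 (1.15 to 2.86) and 3.81-fold higher. The kidney libraries, with 4 counts and 0, held less of it than either heart. Cxcl10 went without a detectable difference, since it had only 5 and 2 counts in heart and a log2 interval from −4.70 to 1.30. The CLP heart held 3.21% and the CLP + MLT heart 5.93% of its kidney level. Both values rest on these few counts and on kidney levels of 9.38 and 2.12 CPM on total counts. Of the tubule markers, only Slc5a2 stood higher (6.85% and 29.8%). Ifng, the cytokine best known to induce Cxcl9, had 0 counts in both hearts and 1 and 0 in the kidneys, too few to compare. Of 18 interferon response genes, 0 passed the thresholds in heart, with 9 ratios above 0 and 9 below. The part of interferon in the Cxcl9 value was not tested.

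Cxcl12 led the 10 genes by TPM in both hearts, though its interval overlapped that of Ccl7 in the CLP heart. It had 1297 counts in the CLP heart and 2105 in the CLP + MLT heart, or 79.5 and 130.0 CPM, a log2 ratio of 0.71 (0.61 to 0.81) and 1.63-fold higher. Its interval lay wholly beyond a 1.5-fold rise. Its signalling receptor Cxcr4 had 41 and 28 counts and a log2 interval from −1.29 to 0.19. Ackr3, a receptor that removes Cxcl12, had 318 and 244 counts and a log2 ratio of −0.37 (−0.62 to −0.13), under the fold threshold. Endothelial cells make Cxcl12, and of 6 endothelial markers 1 was higher past the thresholds (Kdr, 0.91) and 0 were lower, with a median of 0.27 and summed levels of 814.0 and 990.5 CPM. Their part in the Cxcl12 value was not tested.

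The CCR2 ligands parted in heart. Ccl7 had 121 counts in the CLP heart and 64 in the CLP + MLT heart, or 7.42 and 3.95 CPM, a log2 ratio of −0.90 (−1.37 to −0.46) and 1.87-fold lower. Ccl2 had 79 and 111 counts, or 4.85 and 6.85 CPM, a log2 ratio of 0.50 (0.07 to 0.94) that lay above 0 but did not reach the fold threshold. Both genes were read far more often in heart than in kidney. In CPM on total counts, Ccl2 was at 1.22 and 0.728 in kidney and at 4.75 and 6.99 in heart. It thus stood at 389.2% of its kidney level in the CLP heart and at 959.4% in the CLP + MLT heart, and Ccl7 at 927.2% in the CLP heart. Ccr2, their receptor, had 15 and 35 counts in heart and a log2 ratio of 1.21 (0.32 to 2.21), higher past the thresholds.

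Cxcl14 had 174 and 110 counts in heart, or 10.7 and 6.79 CPM, a log2 ratio of −0.65 (−1.01 to −0.30) and 1.57-fold lower. Cxcl16 had 354 and 243 counts and a log2 ratio of −0.53 (−0.77 to −0.29), below 0 and just under the fold threshold. Cx3cl1 had 97 and 119 counts and a log2 interval from −0.09 to 0.71, Cxcl1 had 37 and 38 counts with an interval from −0.64 to 0.74, and Ccl5 had 12 and 5 counts with an interval from −3.11 to 0.36. None of these 3 intervals lies away from 0. Cx3cl1 stood at 7.23% of its kidney level in the CLP heart and 13.1% in the CLP + MLT heart, and Cxcl1 at 15.1% and 54.7%. These percentages also move with the kidney level. In CPM on total counts, Cxcl1 was at 14.7 and 4.37 in kidney and at 2.23 and 2.39 in heart. Cx3cl1 was at 80.7 and 57.4 in kidney and at 5.84 and 7.49 in heart.

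Set side by side, 6 of the genes had enough counts in both tissues. The ratios of 4 of them (Ccl2, Cxcl1, Cxcl14 and Cx3cl1) lay on opposite sides of 0 in kidney and heart, and those of 2 (Cxcl12 and Cxcl16) on the same side. No gene passed the thresholds in both tissues. The difference of the log2 ratios, heart minus kidney, was 1.60 for Cxcl1 (95% counting interval 0.85 to 2.34), −0.98 for Cxcl14 (−1.50 to −0.47), 0.60 for Cx3cl1 (0.20 to 1.00) and 0.38 for Cxcl12 (0.25 to 0.51). For Ccl2 it was 1.03 (−0.01 to 2.08) and for Cxcl16 0.15 (−0.13 to 0.44), intervals that hold 0.

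The other chemokine ligands were counted from a list of 27. In kidney, 14 had enough counts, 5 of them higher in the CLP + MLT library and 3 lower, with a median of 0.66. The lower ones were the neutrophil attractants Cxcl2 (47 and 6 counts, log2 ratio −2.23) and Cxcl5 (62 and 9 counts, −2.07), which bind CXCR2 like Cxcl1, and the B cell attractant Cxcl13 (45 and 11 counts, −1.33). The higher ones were the platelet gene Ppbp (3 and 23 counts, 3.37 with an interval from 1.88 to 5.99), Ccl4 (12 and 21 counts, 1.43), Ccl6 (25 and 33 counts, 1.05), Ccl27a (345 and 432 counts, 0.995) and the epithelial chemokine Ccl28 (128 and 126 counts, 0.65). The genes of CXCR2 ligands with enough counts in kidney were thus split. Cxcl1, Cxcl2 and Cxcl5 were lower, and Ppbp, which gives rise to a further CXCR2 ligand, was higher. Ccl27a has near-identical copies in the mouse genome that can share its reads, so its count is uncertain.

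In heart, 9 of the 27 had enough counts, 1 higher and 3 lower, with a median of −0.56. Lower were Cxcl13 (375 and 130 counts, log2 ratio −1.51), the CCR1 ligand Ccl9 (294 and 121 counts, −1.27) and Ccl12, a further CCR2 ligand (68 and 37 counts, −0.86). Higher was Ppbp (39 and 72 counts, 0.89). The platelet chemokine gene Pf4 had 88 and 86 counts and a log2 ratio of −0.02. Cxcl13 was thus lower past the thresholds in both tissues, and Ppbp was higher in both. With the 10 genes added, 17 of 37 ligands had enough counts in heart, 3 of them higher and 5 lower, with a median of −0.03. Over all genes in heart, 7.15% were higher and 8.78% lower.

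Receptors were read much less often than ligands. In kidney, 5 of 18 had enough counts and 0 passed the thresholds, with a median of 0.09. Ccr2 had 72 and 60 counts, Cxcr4 87 and 58, Cx3cr1 159 and 126, and Ccr1 49 and 16 with a log2 ratio of −0.93 (−1.86 to −0.10). Cxcr2 had 6 counts in each kidney library, Cxcr3 4 and 1, Cxcr6 3 and 4 and Ccr3 0 in both, too few to compare. In heart, Ccr2 was higher, as given above, and Ccr1, a receptor of Ccl5 and Ccl7, was lower (85 and 29 counts, −1.53). Cx3cr1 had 29 and 31 counts in heart, Cxcr2 5 and 4, Cxcr3 0 and 1, Ccr3 0 and 2, and Cxcr6 0 in both. Of the atypical receptors, which take up chemokines without signalling, Ackr4 was lower in kidney (615 and 237 counts, −0.70), 1 of 3 with enough counts there, and 0 of 4 passed in heart.

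**Figure D3:**
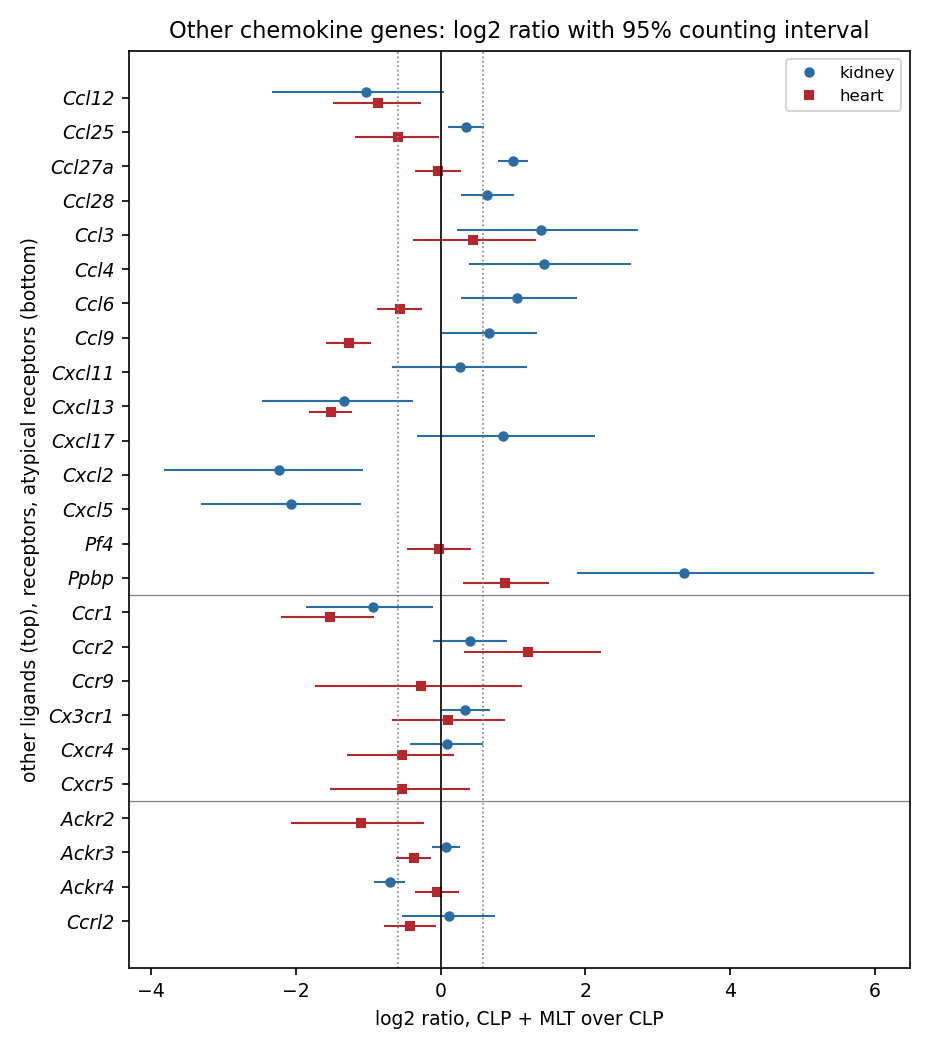
Log2 ratio of CLP + MLT over CLP with 95% exact counting intervals for other chemokine ligands (top), receptors (middle) and atypical receptors (bottom) among those that had a mean of at least 10 counts in kidney (circles) or heart (squares); dotted lines mark a 1.5-fold change. Cxcl2 (−2.23) and Cxcl5 (−2.07) lie to the left in kidney, Ccr1 (−1.53) lies to the left in heart, and Ppbp lies to the right in both tissues (3.37 and 0.89).

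Genes that answer the same signals were counted beside the chemokines. Of 12 NF-kB target and feedback genes, all 12 had ratios below 0 in kidney and 3 were lower past the thresholds, with a median of −0.40. They were Bcl3 (330 and 93 counts, −1.15), Nfkbie (111 and 36 counts, −0.95) and the adhesion molecule gene Icam1 (1422 and 499 counts, −0.84). In heart, 0 of the 12 passed, 6 ratios lay above 0 and 6 below, and the median was −0.06. Of 17 interferon response genes with enough counts in kidney, 12 ratios lay below 0 and 5 above, with a median of −0.35. Past the thresholds, 0 were higher and 4 lower. They were Zbp1 (75 and 10 counts, −2.19), Gbp2 (157 and 34 counts, −1.52), Irf7 (607 and 221 counts, −0.78) and Ifit1 (216 and 79 counts, −0.78). Over all genes with enough counts in kidney, 7.58% were lower and 7.8% higher, with a median of 0.0029. In heart, 15.9% of all genes passed in either direction. The shift of Cxcl10 in kidney was larger than that of Irf1 (483 and 230 counts, −0.40), a transcription factor of the interferon response. In heart, the 18 interferon genes had a median of −0.0015. Of the upstream cytokines, Il1b had 46 and 20 counts in kidney (−0.52) and 48 and 36 in heart (−0.40), neither past the thresholds, and Tnf was higher in heart with 15 and 44 counts (1.53). Il6 had at most 4 counts in any library, and Il17a and Ifnb1 had none.

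Markers of the cells that make or follow chemokines moved in both directions. In kidney, 2 of 6 neutrophil markers with enough counts were lower (Ngp, 53 and 2 counts, and S100a9, 278 and 104 counts) and 0 higher, and the summed level was 22.8 and 16.2 CPM. Retnlg (26 and 30 counts, log2 ratio 0.86 with an interval from 0.07 to 1.69) and Csf3r (0.09) lay above 0. In heart, 3 of 6 were lower (Ngp, Mmp8 and S100a9) and 0 higher, with sums of 54.3 and 38.9 CPM, and Retnlg lay above 0 (0.24). Over all genes, 7.58% were lower in kidney and 8.78% in heart. Ly6g, a defining neutrophil gene, had 0 counts in all 4 libraries. Of 11 monocyte and macrophage markers with enough counts in kidney, 3 were higher (Lyz2, log2 ratio 1.81, Csf1r, 1.13, and Itgam, 0.80) and 1 lower (Cd14, 787 and 69 counts, −2.83), with sums of 173.2 and 269.9 CPM. In heart, 2 of 13 were higher (Adgre1, 1.56, and Lyz2, 1.13) and 4 lower (Fcgr1, Cd163, Mrc1 and C1qa, from −0.90 to −0.80), with sums of 318.0 and 348.5 CPM.

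T and NK cells, the targets of Cxcl9 and Cxcl10, were barely read. Of 7 T cell markers, 2 in kidney and 1 in heart had enough counts and 0 passed, and 0 of 7 NK cell markers had enough counts in either tissue. The NK list summed to 18 and 8 counts in kidney and 22 and 5 in heart. B cell markers were higher in both tissues, among them Ighm with 20 and 87 counts in kidney (2.76) and 25 and 115 in heart (2.19), while Cxcl13 was lower. Ms4a1, which defines B cells, had 0 counts in all 4 libraries.

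Tissue cells were counted in the same way. Over all genes, 7.58% were lower and 7.8% higher in kidney, and 8.78% were lower and 7.15% higher in heart. In kidney, all 6 endothelial markers had ratios below 0 and 1 was lower past the thresholds (Flt1, −0.59), with sums of 249.7 and 186.5 CPM, while Cxcl12 was at 0.33 and Cx3cl1 at −0.30. Fibroblast markers had 1 of 5 lower in kidney and 1 of 6 lower in heart, Col1a1 in both. Kidney tubule markers split in kidney, with 2 higher (Slc12a1, 1.07, and Slc34a1, 0.63) and 2 lower (Slc5a2, −2.23, and Slc22a6, −0.63). Cardiomyocyte markers in heart had 1 higher (Myh7, 0.94) and 2 lower (Tnni3, −1.27, and Actn2, −1.14). In kidney, 4 of 6 were higher at sums of 7.26 and 14.2 CPM, far under their 26816 and 19431 CPM in heart. Of the fat markers, 1 of 3 was lower in kidney (Plin1, 33 counts and 1) and 0 of 1 passed in heart. Of the liver markers, Serpina1a was higher in both tissues (1.17 in kidney and 1.70 in heart), and Alb was at −0.01 in kidney and lower in heart (−0.99). The part of these cell types in the chemokine values was not tested.

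**Figure D4:**
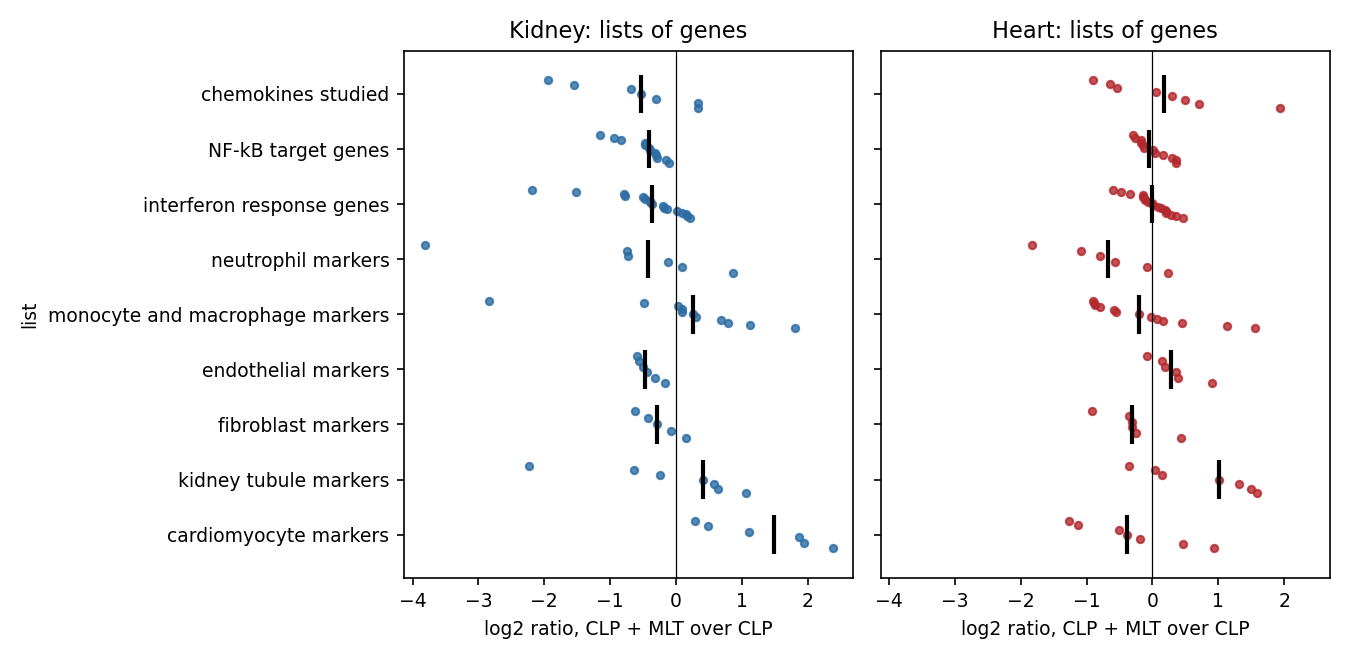
Log2 ratio of CLP + MLT over CLP for the genes of 9 lists in kidney (left) and heart (right), 1 point for each gene averaging 10 counts or more and a black bar at each median. In kidney the chemokine genes studied (median −0.54), NF-kB target genes (−0.40) and interferon response genes (−0.35) sit left of 0. So do the endothelial (−0.47), neutrophil (−0.42) and fibroblast markers (−0.28), while the other lists sit right of 0. In heart the medians of the chemokine genes studied, NF-kB target genes and interferon response genes are 0.18, −0.06 and −0.0015. Those of the endothelial, neutrophil and fibroblast markers there are 0.27, −0.68 and −0.32.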

How the data were processed

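The authors trimmed reads with trim-galore, aligned them to mm10 with HISAT2 2.1.0, and deposited raw counts of reads per gene, 1 file a library; the submitters' processing notes also name HTSeq. The HTSeq version, strand setting and annotation are not given in these sources. Libraries were made from poly-A RNA. In each file, 5 rows name no gene (reads on no gene, ambiguous or placed at several sites). They hold 65.5% to 72.8% of all reads and entered neither library sizes nor tests. Reads placed at several sites made up 23.6% (CLP kidney), 32.6% (CLP + MLT kidney), 38.6% (CLP heart) and 37.0% (CLP + MLT heart).

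From the deposited counts, TMM factors were computed within each tissue with edgeR 4.0.16 in R 4.3.3, on genes averaging 10 counts or more (factors 1.07 and 0.935 in kidney, 0.981 and 1.02 in heart). Ratios, intervals and figures used Python 3.11.15, numpy 2.4.6, pandas 2.3.3, scipy 1.17.1 and matplotlib 3.10.9. A log2 ratio used a prior count of 0.5. Its interval is a 95% exact Clopper-Pearson interval, and levels carry exact Poisson intervals. PCR copies of one molecule are read as separate counts, so all of these cover counting error only. The heart minus kidney interval used a normal approximation on the log scale. The study states edgeR with the fold and p thresholds used here, but no dispersion, and 1 library a group allows none to be estimated. The limit for 0 counts was 3 counts per library.

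TPM used the exon length of GENCODE M21 (GRCm38, the build of mm10), which gave names and lengths to 55141 of 55401 identifiers. Exon lengths include retained introns of some transcripts, so TPM of genes such as Cxcl1 and Cxcl10 may be low. The level in heart as a percent of that in kidney used CPM on total counts.

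The 10 genes and all lists were chosen with earlier results of these data known. Lists were written from general knowledge. From each, up to 6 genes past the thresholds in a tissue are named, with the receptors of the 10 genes; genes outside this rule were picked with their values in view. Some items of the lists are not reported here, though the counts and medians of lists include them. The procedure was tested on simulated data. With no spread between mice few unchanged genes passed, but with a simulated coefficient of variation of 0.2 between mice, the share of unchanged genes that passed was close to the share of all genes that passed in these libraries. Alternatives were other scalings (library size only, DESeq2 1.42.0 size factors, upper quartile, no mitochondrial or haemoglobin genes), other filters, a prior count of 5, a fold change of at least 2, and the exact test of edgeR with the coefficient of variation set to 0.1, 0.2 or 0.4.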

Additional observations from a re-analysis of the deposited data

Results flagged for a closer look

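Ratios on opposite sides of 0 in kidney and heart, with a counting interval of the difference away from 0, were found for 3 chemokine genes. Heart minus kidney, the log2 ratios differed by 1.60 for Cxcl1 (−1.55 in kidney and 0.05 in heart), by −0.98 for Cxcl14 (0.33 and −0.65) and by 0.60 for Cx3cl1 (−0.30 and 0.30). The ratio of Cxcl1 in heart is within counting error of 0. With 1 library per tissue and group, the difference between the tissues was not tested against the spread between mice, and no source used here states the dose and time of the heart group.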

How the results depend on the processing

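Under all 4 other scalings and a prior count of 5, the 3 genes lower in kidney (Cxcl1, Cxcl10 and Cxcl16) and the 4 past the thresholds in heart (Cxcl9, Cxcl12, Ccl7 and Cxcl14) kept their calls, and no ratio of a tested chemokine gene changed sign under any alternative run. With no filter on low counts, Ccl7 passed in kidney as well. Assumed spread between mice changed more. At a coefficient of variation of 0.1, heart kept 2 higher and 1 lower (Ccl7). At 0.2, kidney kept Cxcl1 and Cxcl10, and heart kept 1 higher (Cxcl9) and 0 lower. At 0.4, 0 chemokine genes passed in either tissue, and 0 in either direction. With a fold change of at least 2, kidney kept Cxcl1 and Cxcl10 and heart 1 higher (Cxcl9) and 0 lower. With a mean of at least 50 counts, Cxcl9 was not tested and heart kept 1 higher (Cxcl12). The median of the chemokine genes ranged from −0.73 (library size only) to −0.43 (prior count of 5) in kidney and from −0.24 (no filter) to 0.23 (library size only) in heart. Over all genes, a coefficient of variation of 0.4 left 23 higher and 67 lower in kidney and 42 and 21 in heart, against 1320 and 1284 and 1134 and 1394; at 0.2 it left 289 and 330, and 292 and 370; a fold change of at least 2 left 563 and 622, and 595 and 664. No paired analysis was possible because each group has 1 library. Leaving out a replicate was not possible either. Depth limits Ccl5, Cxcl9 and Ccl7 in kidney and Ccl5 and Cxcl10 in heart, each with a mean under 10 counts.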

Other observations

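Ligands read in only 1 of the libraries of a tissue were looked at after their values were seen, and only some of them are named here. Others with few counts include Ccl24 (4 and 0) and Ccl17 (0 and 3) in heart. Cxcl5 had 15 counts in the CLP heart and 0 in the CLP + MLT heart, and 62 and 9 counts in kidney. Ccl20, an epithelial chemokine that attracts CCR6 cells, had 8 counts in the CLP kidney and 0 in the CLP + MLT kidney, and 3 and 0 in heart. Ccl19 had 0 counts in the CLP kidney and 4 in the CLP + MLT kidney. No fold is given for these values, since none of these genes had a mean of at least 10 counts in the tissue where a library was at 0.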
